A study of Mus musculus with 36 samples.

Results

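The comparison described here is diaphragm of mdx mice against diaphragm of control mice at 14 days of age. It takes in the 6 arrays whose titles give that age, 3 mdx and 3 control, out of 36 arrays in the whole series, and reads them across all genes on the array. Total RNA from the diaphragm, the main muscle of breathing, was hybridised to 1-colour Affymetrix arrays, on which a gene is read by 1 or more probe sets, and the series covers both genotypes at 7, 14, 23, 28, 56 and 112 days with 3 arrays a group. The mdx group carries the mdx mutation of the dystrophin gene Dmd and the control group is named only as control. The labels give no strain, sex, pooling or treatment for either group. Replicates are only numbered, so the p-values speak only to how much these arrays vary, and that variation may be technical.

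Dystrophin links the actin cytoskeleton of a muscle fibre to the extracellular matrix through a complex of membrane proteins. In mice without it, fibres are damaged by contraction, die, attract monocytes and macrophages through chemokines such as Ccl2, and are replaced from satellite cells, which pass through a programme of myogenic regulators and developmental contractile proteins. The diaphragm is the muscle in which mdx mice show lasting disease. These are measurements of whole tissue, in which more cells of a type and more RNA per cell cannot be told apart.

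At 14 days the genes that rose in mdx diaphragm were few. H2-Aa and Ccl2, of the antigen presentation and chemokine systems, had the largest rises among them. H2-Aa, the alpha chain of the MHC class II molecule I-A, and Ccl2, the chemokine that draws in monocytes, had mean signals 9.65 and 9.07 times those of controls, whose signals were below the 374.5 used as a filter, so the sizes of these ratios are uncertain. Tiparp, an aryl hydrocarbon receptor target, and Rfc4, a DNA replication factor, came next at 5.04 and 4.63 times, also over control signals below that filter. Ctss, the cysteine protease that trims the invariant chain of class II molecules, rose 2.80-fold, and Mt2, a metal-binding metallothionein, 2.89-fold. No gene on the 13 muscle lists rose or fell by the same test. In all, 15 of 9291 tested probe sets were called higher in mdx (0.161%) and 3 lower (0.0323%), with limma and Benjamini-Hochberg adjustment at an adjusted p under 0.05. At an unadjusted p under 0.05 there were 611 probe sets (6.58%), and in 1200 (12.9%) the mdx and control arrays did not overlap.

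The 6 arrays were close in overall level, with median signals between 663 and 687.8, and any pair of them correlated at 0.928 or more. Albumin, a liver transcript, was above 10000 on control replicates 2 and 3 and on mdx replicate 3, at 33932.2, 30108.7 and 34651.6, and between 4076.1 and 6228.4 on the other 3 arrays. Bright signals of 2 muscle genes showed muscle tissue, though not which muscle. The fast troponin Tnnt3 read between 60219.3 and 92203.8 and the slow fibre myosin Myh7 between 24561.5 and 30341.4 on all 6 arrays. Dmd, the mutated gene, read 711.0, 1014.5 and 603.7 in controls against 264.1, 260.6 and 465.8 in mdx. The groups did not overlap, but the log2 difference of -1.17 (95% interval -1.79 to -0.56) had an adjusted p of 0.133. It was called with array weights and in no other alternative.

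Promoter sequences are shown for the 4 genes with the lowest adjusted p for which the RefSeq table (GRCm38.p6) held a window, as the 250 bases before the annotated start, 5′ to 3′ on the gene's strand. They stand at chr17:34287824-34288073 on the minus strand for H2-Aa, and on the plus strand at chr3:95526536-95526785 for Ctss, chr8:94172368-94172617 for Mt2 and chr3:65528197-65528446 for Tiparp. The genes, and some of the motif letters, were chosen after calls and sequences had been seen, so a match is a description. Capitals mark, in H2-Aa, TGACG on both strands and ATTGG, the core letters of the X2 and Y boxes of class II promoters. In Ctss they mark the interferon stimulated response element, GAAA repeated after 2 bases, in Mt2 the metal response core TGCNCNC on either strand, and in Tiparp the dioxin response core GCGTG, here on the minus strand.
H2-Aa: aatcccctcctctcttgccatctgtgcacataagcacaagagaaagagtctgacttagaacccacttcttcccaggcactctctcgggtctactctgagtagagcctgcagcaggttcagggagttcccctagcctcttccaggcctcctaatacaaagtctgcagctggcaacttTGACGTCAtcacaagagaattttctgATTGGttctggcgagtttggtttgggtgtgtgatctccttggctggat
Ctss: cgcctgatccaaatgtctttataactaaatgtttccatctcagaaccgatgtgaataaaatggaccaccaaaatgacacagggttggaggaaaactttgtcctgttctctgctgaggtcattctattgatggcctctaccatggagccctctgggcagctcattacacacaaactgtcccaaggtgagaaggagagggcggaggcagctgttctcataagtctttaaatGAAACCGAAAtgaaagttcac
Mt2: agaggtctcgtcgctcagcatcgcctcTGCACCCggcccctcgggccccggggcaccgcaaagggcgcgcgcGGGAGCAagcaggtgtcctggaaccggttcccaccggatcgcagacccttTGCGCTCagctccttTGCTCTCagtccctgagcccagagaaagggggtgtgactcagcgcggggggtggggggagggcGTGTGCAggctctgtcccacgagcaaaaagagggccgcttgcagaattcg
Tiparp: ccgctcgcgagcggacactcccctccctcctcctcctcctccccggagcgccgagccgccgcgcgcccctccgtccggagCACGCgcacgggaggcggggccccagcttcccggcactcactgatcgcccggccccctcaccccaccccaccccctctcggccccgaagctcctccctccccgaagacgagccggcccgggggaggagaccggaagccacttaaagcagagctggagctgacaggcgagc

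In H2-Aa, ATTGG lay 48 bases before the start and TGACG at 74 and, on the other strand, 71 bases, the 2 matches overlapping. Over 32851 promoter windows of this length, searched on both strands, ATTGG was present in 33.8% and TGACG in 17.8%. The 1 such element of Ctss lay 21 bases before the start, and 2.98% of windows held that motif. TGCNCNC occurred 5 times in Mt2 and is in 44.4% of windows, while GCGTG, 170 bases before the start of Tiparp and 52 bases before that of Mt2, is in 28.2%. Of the 18 called genes, 14 had a window. Motifs of other factors were also searched: TGANTCA had 1 match in Mt2 (6.75% of windows), a kappa B pattern of GGG and CC with 5 bases between in H2-Aa (3 overlapping matches) and Tiparp (45.8%), and TTCNNNGAA in none of the 4 (7.02%).

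Class II antigen presentation held the lowest p of the comparison. H2-Aa read 288.9, 235.5 and 312.4 on the control arrays and 2763.1, 3486.2 and 1822.4 on the mdx arrays. Every mdx array was far above every control. The log2 difference was 3.09 (95% interval 2.25 to 3.93, adjusted p 0.000299). Ctss read 1509.3, 1284.8 and 2071.4 in controls against 4793.9, 5143.5 and 3673.9 in mdx, again without overlap, a log2 difference of 1.48 (1.05 to 1.91, adjusted p 0.000299). Cd74, the invariant chain that guides class II molecules through the cell, read 4892.7, 3660.5 and 5719.0 in controls against 9835.5, 8869.9 and 8133.4 in mdx. The groups were apart, and the log2 difference was 0.93 (0.51 to 1.34, adjusted p 0.0416).

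The beta chain H2-Ab1, partner of H2-Aa, read 668.8, 730.2 and 286.7 in controls and 1821.7, 1611.0 and 1087.9 in mdx. All mdx arrays were higher, but the log2 difference of 1.44 (0.60 to 2.29) did not pass (adjusted p 0.232). H2-Eb1, the beta chain of I-E, differed by 0.58 (0.03 to 1.13, adjusted p 0.722), and Ciita, the coactivator that class II genes depend on, by -0.41 (-1.19 to 0.37, adjusted p 0.975). Of 16 tested genes on the class II list, 3 were called higher and 0 lower, 6 had all mdx arrays above all controls, and the median log2 difference was 0.53. Over all tested probe sets that median was 0 and the share with all mdx arrays above was 6.87%. Ctss and Cd74 were also called at 23 days, when 2.66% of tested probe sets were called higher, at 2.72 and 0.92, whereas H2-Aa was 1.05 there with an adjusted p of 0.199. The control mean of H2-Aa was 278.9 at 14 days and 3074 at 23 days, against 2691 and 6480 in mdx.

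**Figure D1:**
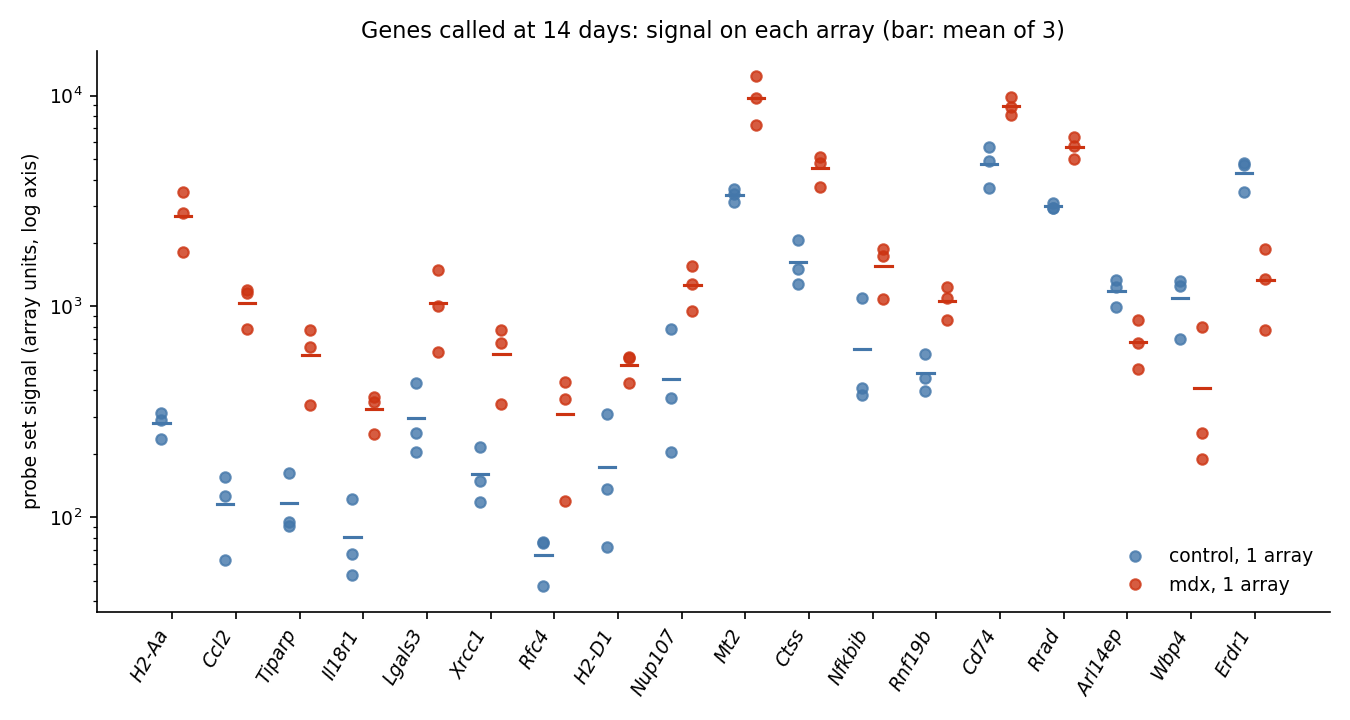
Signal of the 18 probe sets called at 14 days on each of the 6 arrays (log axis, array units; points are arrays, bars the mean of 3), ordered by log2 difference. H2-Aa and Ccl2 stand farthest apart, and the groups overlap for Nfkbib and Wbp4.

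Among chemokines, Ccl2 read 126.4, 62.8 and 155.7 in controls against 1191.9, 1154.6 and 783.6 in mdx. The lowest mdx array was well above the highest control. The log2 difference was 2.91 (1.97 to 3.84, adjusted p 0.000866), and it was 4.20 at 23 days. Ccl7, a related monocyte chemokine, read 72.9, 224.7 and 95.7 against 446.6, 449.7 and 365.3, and Ccr2, the receptor of both, 389.1, 401.2 and 504.7 against 840.4, 1189.8 and 554.1. Both were higher on every mdx array without passing the test, at log2 differences of 1.58 (0.61 to 2.54, adjusted p 0.28) and 0.89 (0.30 to 1.49, adjusted p 0.377). Of 24 tested chemokines and receptors 1 was called, 4 were wholly above and 3 wholly below controls, and the median was 0.01. Over all tested probe sets 0.161% were called higher, 6.87% lay wholly above and 6.05% wholly below. Cxcl12, a chemokine made by stromal cells, was among those below, at -0.64 (-0.97 to -0.32, adjusted p 0.109), and was called lower with array weights and without mdx replicate 3.

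Il18r1, a chain of the interleukin 18 receptor, read 122.5, 66.6 and 53.3 in controls against 353.3, 248.5 and 372.5 in mdx. The groups were apart, with a log2 difference of 1.69 (0.92 to 2.46) at an adjusted p of 0.0489, close to the threshold, and the call was lost in 12 of 16 alternatives. It was the 1 called gene of 31 tested cytokines and receptors (median 0.13). The classical early cytokines Tnf, Il1b and Il6 and the interferon-induced chemokine Cxcl10 were too dim to be tested. Tnf read 104.3, 148.9 and 84.3 in controls and 126.6, 152.3 and 150.3 in mdx, and Il1b 181.3, 40.5 and 110.2 against 115.3, 210.5 and 70.5. Both overlapped. Cxcl10 read 19.4, 37.9 and 48.8 against 115.8, 77.7 and 125.3, with all mdx arrays higher at signals below the filter of 374.5.

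Few monocyte and macrophage markers passed the test. Of 32 tested markers 2 were called, Ctss and Lgals3, and 12 (37.5%) lay wholly above controls and 1 below, against 6.87% and 6.05% of all tested probe sets, and the median log2 difference was 0.33. Their summed signal ran from 30570 to 34390 in controls and from 39390 to 46590 in mdx. Lgals3, the carbohydrate-binding galectin-3 of macrophages, read 251.4, 204.0 and 431.5 in controls and 1488.9, 1008.3 and 605.6 in mdx. No arrays overlapped, and the log2 difference was 1.67 (1.01 to 2.34, adjusted p 0.0145). Cd52, a small surface glycoprotein of leukocytes, was next in order of p, with 593.8, 538.1 and 710.6 against 1172.6, 1386.5 and 1105.2. It missed the threshold narrowly, at 0.96 (0.52 to 1.40, adjusted p 0.0512), and was called in 5 of the alternatives.

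Other defining markers of the lineage gave a mixed picture. Lyz2, lysozyme, differed by 0.62 (0.22 to 1.02, adjusted p 0.371), Tyrobp, a signalling adaptor, by 0.61 (0.09 to 1.12, adjusted p 0.621), and Cd68, a lysosomal protein, by 0.42 (-0.13 to 0.97, adjusted p 0.896). Adgre1, the F4/80 antigen, read 251.4, 927.5 and 1194.3 in controls against 487.5, 566.4 and 897.0 in mdx. These overlapped, and the interval of its difference, -1.13 to 0.99, leaves room for sizeable change in either direction. Itgam, Ptprc and Itgb2 differed by 0.15, -0.26 and 0.04. At 23 days 26 of the 32 markers were called higher, against 2.66% of all tested probe sets, and their median was 1.65. Of the 12 markers wholly above controls at 14 days, mdx replicate 3 had the lowest mdx value in 9, and this array also had high albumin.

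Markers of other leukocytes were not called. Of 14 tested neutrophil markers 0 were called and 0 lay wholly above controls (median -0.09). S100a8, a neutrophil calcium-binding protein, read 610.9, 752.0 and 688.0 in controls and 589.6, 405.2 and 499.6 in mdx, all mdx arrays lower, with an interval of -1.66 to 0.77 about a log2 difference of -0.44. Of 12 tested T and NK cell markers and 16 B cell and immunoglobulin genes 0 were called, with medians of 0.14 and -0.04. Complement (16 tested, median 0.14), Fc receptors (5, 0.15), leukocyte adhesion genes (14, 0) and markers of alternatively activated macrophages (11, 0.09) also had 0 calls. Among complement genes C1qa, C1qb and C1qc, made by macrophages, differed by 0.18, 0.43 and 0.32. Of 27 interferon response genes 0 were called and 1 lay wholly above controls (median 0.07). Over all tested probe sets 6.87% lay wholly above.

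Over the 17 immune lists together, 277 genes were tested, 7 were called higher and 0 lower. All mdx arrays were above all controls for 42 (15.2%) and below for 11 (3.97%), against 6.87% and 6.05% of all tested probe sets. The median log2 difference was 0.11 at 14 days and 0.45 at 23 days. For 156 immune genes (56.3%) the 95% interval lay within 2-fold in both directions, against 68.7% of all tested probe sets. For the uncalled genes outside that bound, a change of 2-fold or more is within the interval.

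**Figure D2:**
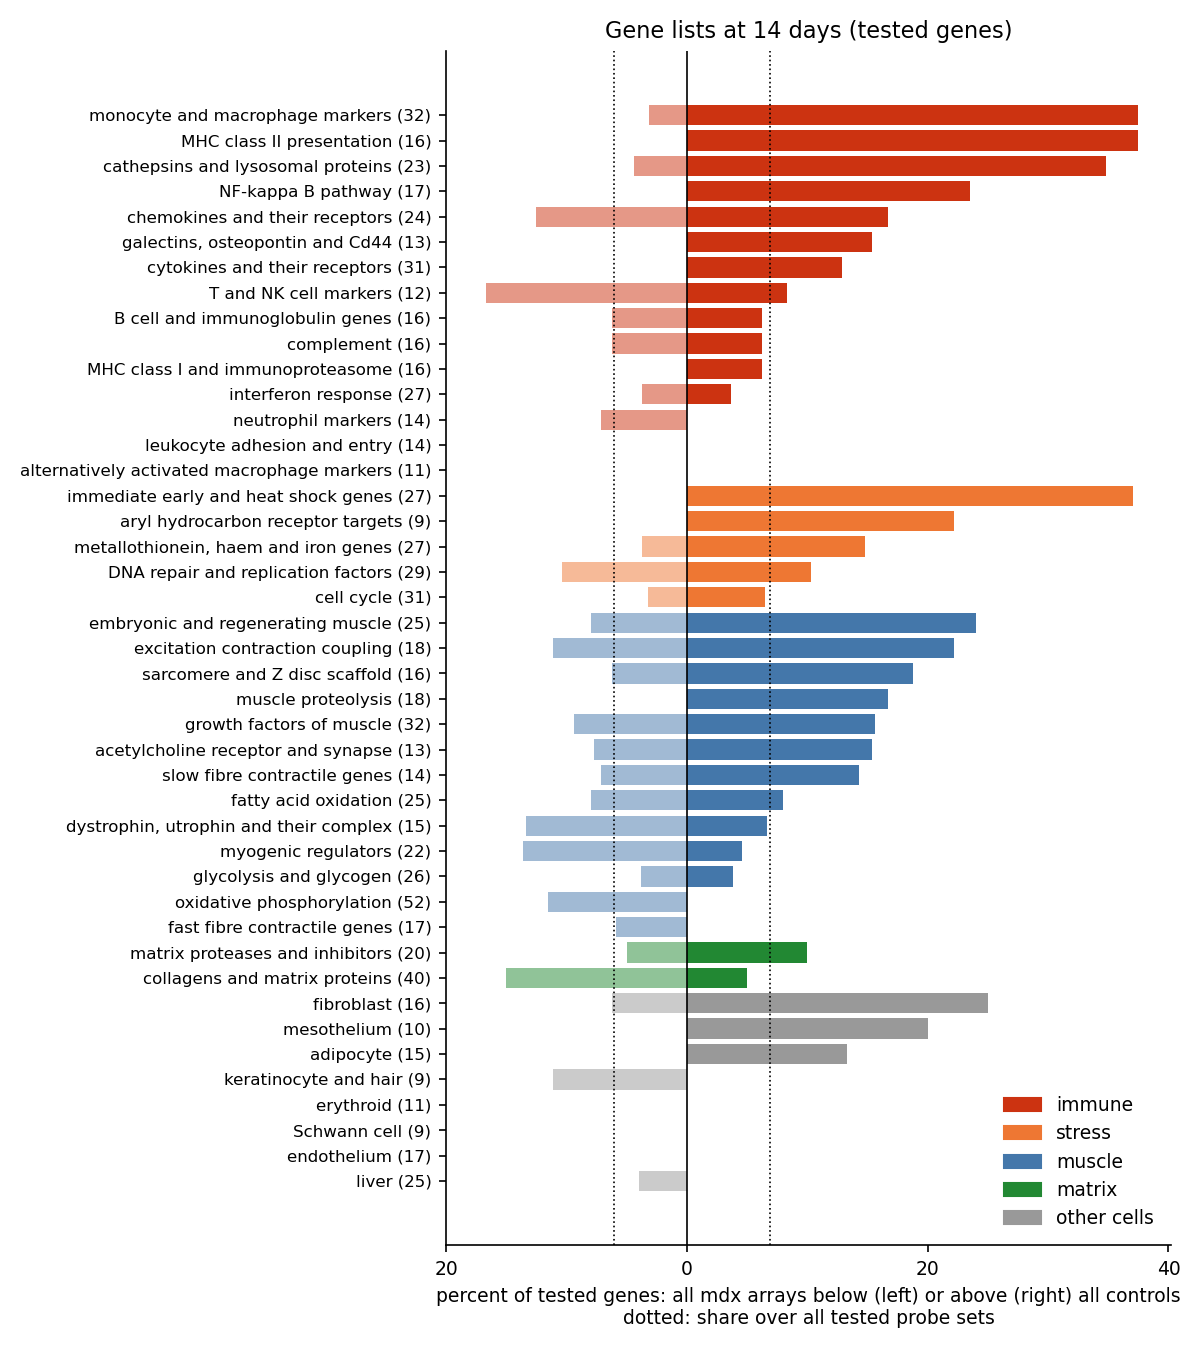
For each list with 9 or more tested genes, the percent of its tested genes with all 3 mdx arrays above (right) or below (left) all 3 control arrays at 14 days, with dotted lines at the shares over all tested probe sets (6.87% and 6.05%). Macrophage and class II lists reach 37.5% on the right. Immediate early and heat shock genes, with 10 of 27, and cathepsins and lysosomal proteins, with 8 of 23, lie close to them. Oxidative phosphorylation has 0 on that side.

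Further called genes were members of the stress lists. Mt2 read 3133.1, 3619.2 and 3435.3 in controls against 12375.6, 9748.6 and 7288.2 in mdx. The groups were widely apart, and the log2 difference was 1.49 (1.01 to 1.97, adjusted p 0.000866). Mt1, its neighbour and relative, read 3128.5, 2965.8 and 3111.5 against 6793.6, 4801.8 and 5484.2, also without overlap, at 0.87 (0.40 to 1.34) with an adjusted p of 0.148. Tiparp, an ADP-ribosyltransferase induced by the aryl hydrocarbon receptor, read 95.1, 162.9 and 91.2 in controls and 339.0, 775.9 and 644.3 in mdx. Every mdx array was higher, with a log2 difference of 2.02 (1.39 to 2.65, adjusted p 0.000866). It was the 1 called gene of 9 tested aryl hydrocarbon receptor targets, whose median was -0.01. Its control mean was 452.6 at 7 days, 116.4 at 14 days and 989.5 at 23 days, against 398.8, 586.4 and 1319 in mdx, so control signals were lowest of the 3 ages at 14 days.

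Immediate early and heat shock genes had 0 calls. Of 27 tested, 10 lay wholly above controls and 0 below, against 6.87% and 6.05% of all tested probe sets (median 0.22). Among them Fos, a subunit of AP-1, read 2775.3, 2587.2 and 3219.1 in controls and 3363.5, 5498.5 and 4317.4 in mdx, a log2 difference of 0.59 (0.06 to 1.12, adjusted p 0.656). Rrad, a small GTPase that restrains calcium channels, read 3100.9, 2927.6 and 2934.5 in controls against 5026.5, 5765.8 and 6361.5 in mdx. The groups were apart, and it rose by 0.92 (0.52 to 1.32, adjusted p 0.0344), and by 2.14 at 23 days. Rnf19b, a ubiquitin ligase of immune cells, rose by 1.10 (0.63 to 1.56, adjusted p 0.0274). Rrad and Rnf19b were not among the called members of any list. Over the stress and cell cycle lists 122 genes were tested. Of these, 4 were called higher (Mt2, Tiparp, Xrcc1 and Rfc4) and 0 lower, and 21 (17.2%) lay wholly above and 5 (4.1%) below controls. Over all tested probe sets 0.161% were called higher, 6.87% lay above and 6.05% below.

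As for Tiparp, several called genes differed with control signals that were low at this age. Xrcc1, a scaffold of DNA single-strand break repair, read 117.7, 148.6 and 215.4 in controls and 342.9, 770.3 and 669.5 in mdx, a log2 difference of 1.66 (adjusted p 0.00845). The control mean was 762 at 7 days, 160.6 at 14 days and 630.5 at 23 days, while the mdx mean stayed between 594.2 and 711.6. Rfc4, a subunit of the clamp loader of DNA replication (log2 difference 1.64, adjusted p 0.0398), had control means of 409.5, 66.4 and 316 at those ages against 374.1, 307.6 and 336 in mdx. For Nup107, a nuclear pore protein (1.58, adjusted p 0.0231), control means were 1735, 452.9 and 1064 and mdx means 1167, 1264 and 1215. None of these 3 was called at 7 or 23 days.

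Nfkbib, an inhibitor of NF-kappa B, read 1092.4, 411.7 and 381.5 in controls and 1082.1, 1865.1 and 1733.4 in mdx. It was called at 1.39 (0.84 to 1.94, adjusted p 0.0141) although control replicate 1 was as high as mdx replicate 1. Nfkbia, another inhibitor and itself a target of the pathway, read 2390.4, 2092.3 and 2186.4 against 3137.6, 3086.5 and 3284.4, all mdx arrays higher, at 0.51 (0.22 to 0.80) and an adjusted p of 0.205. Of 17 tested NF-kappa B pathway genes 1 was called and the median was 0.14. H2-D1, a classical MHC class I heavy chain, was called on 1 of its probe sets, with 308.8, 72.5 and 135.6 against 569.8, 572.8 and 434.0 and a log2 difference of 1.61 (adjusted p 0.00114). Its other probe sets, which were far brighter, differed by 0.23 and 0.06 and were not called. Class I genes are near-identical in places, so which of them the called probe set reads is uncertain, and of 16 tested class I and immunoproteasome genes, each by its brightest probe set, 0 were called.

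The 3 genes that fell were not members of an immune or muscle list. Erdr1, whose symbol stands for erythroid differentiation regulator 1, read 4692.9, 4769.9 and 3481.5 in controls against 772.5, 1352.0 and 1864.3 in mdx. The groups were apart, with a log2 difference of -1.75 (-2.39 to -1.10, adjusted p 0.00776), and the probe set was also called lower at 7 and 23 days (-2.02 and -2.74), when 0.409% and 0.764% of tested probe sets were. Another probe set of the gene differed by -0.74 (adjusted p 0.309). Wbp4, a splicing factor, fell by 1.54 on the log2 scale (adjusted p 0.0212) with mdx replicate 2 at 794.9, above the lowest control at 704.7. Arl14ep fell by 0.80 (adjusted p 0.0416), and its other probe set differed by -0.40.

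Calls rested on few arrays. Of the 18 called genes, Ctss and Mt2 kept the call in all 17 alternatives tried. H2-Aa and Ccl2 lost it in 1 of them, which left out every array with albumin above 10000 and so kept 1 control and 2 mdx arrays at 14 days: their log2 differences there were 3.29 and 2.93 with adjusted p of 0.0773 and 0.236. The lone control array is assumed there to vary like the other groups. Other differences shrank in that setting: Nfkbib to 0.37 (adjusted p 0.934), Nup107 to 0.48 (adjusted p 0.95), H2-D1 to 0.82 (adjusted p 0.456), Il18r1 to 1.09 (adjusted p 0.722) and Rfc4 to 1.18 (adjusted p 0.534). In that setting 13 probe sets were called higher, but only 2 of them were among the 15. Without control replicate 2, 7 probe sets were called higher and 6 of the 15 were kept. Without mdx replicate 2 or mdx replicate 3 the numbers were 7 and 8, all among the 15. The sign of all 15 stayed positive in each alternative that tested them. Array mdx replicate 3 had the lowest mdx value in 8 of the 15.

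Of 274 tested genes on the muscle lists 0 were called at 14 days, and the median log2 difference was 0.01. At an unadjusted p under 0.05 limma gave 12 higher and 6 lower, and the alternatives called between 0 and 3. All mdx arrays were above all controls for 30 (10.9%) and below for 20 (7.3%), against 6.87% and 6.05% of all tested probe sets. For 216 genes (78.8%) the 95% interval lay within 2-fold in both directions, against 68.7% of all tested probe sets. For 16 genes the interval reached more than 1 log2 unit to each side. Among them was Acta1, skeletal alpha actin, at 54486.4, 15853.6 and 38187.0 in controls and 16190.7, 4057.9 and 45776.4 in mdx, with an interval of -4.58 to 2.28. For such genes these arrays give no bound of use.

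Of 25 tested genes of embryonic and regenerating muscle 0 were called, against 12 called higher at 23 days. Every mdx array was above every control for 6 of them and below for 2, 15 had intervals within 2-fold, and the median was 0.16. Over all tested probe sets 6.87% lay wholly above, 6.05% lay wholly below and 68.7% had intervals within 2-fold. At 23 days 2.66% of all tested probe sets were called higher. Myh3, embryonic myosin heavy chain, read 383.5, 414.4 and 401.9 in controls and 613.8, 566.8 and 478.0 in mdx. All mdx arrays were slightly higher, but the log2 difference of 0.43 (-0.48 to 1.34) had an adjusted p of 0.99. At 23 days it was 3.99, and the difference between the ages, -3.56 (-4.84 to -2.27), was itself called (adjusted p 0.00431). Myh8, perinatal myosin, read 2092.5, 3179.9 and 1638.5 against 2435.2, 2347.0 and 3789.1 and overlapped, at 0.33 (-0.28 to 0.93), and the difference of this value from that at 23 days was -3.03 (adjusted p 0.00021). In controls the mean of Myh8 was 25570 at 7 days, 2304 at 14 days and 359.4 at 23 days.

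Myl4, the embryonic and atrial myosin light chain, was the muscle gene nearest to the threshold. It read 1404.7, 1375.0 and 1117.6 in controls and 2472.9, 2717.4 and 3335.2 in mdx. All mdx arrays were clearly higher, with a log2 difference of 1.11 (0.59 to 1.63) and an adjusted p of 0.0637. It was called with a pseudocount of 100, after quantile normalization and with array weights, while its other probe set differed by 0.06. At 23 days the first probe set differed by 4.32, and the difference between ages was -3.21 (adjusted p 4.98e-06). Tnnt2, cardiac troponin T, read 366.8, 286.9 and 442.7 against 713.2, 623.0 and 617.2, apart but not called, at 0.80 (0.28 to 1.32, adjusted p 0.371). Ankrd1, a stretch-responsive cofactor, differed by 0.63 (0.00 to 1.26, adjusted p 0.771) and by 3.05 at 23 days.

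**Figure D3:**
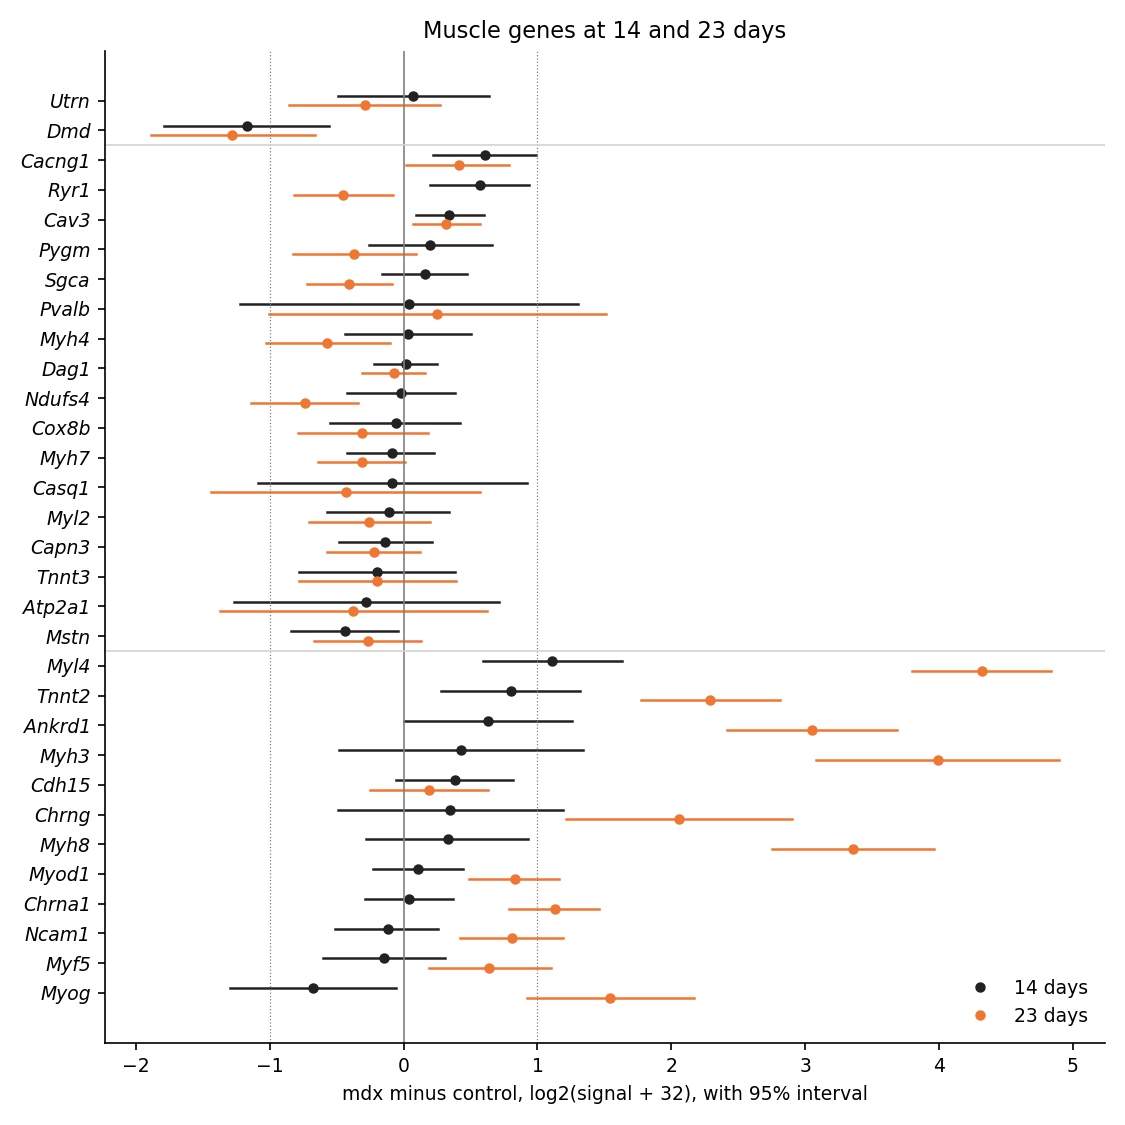
Difference of mdx from control in log2(signal + 32), with 95% intervals, for muscle genes at 14 days (black) and 23 days (orange), grouped from the bottom as regeneration genes, other muscle genes, and dystrophin and utrophin, with dotted lines at 2-fold. Myl4, Myh3 and Myh8 lie near 4.32, 3.99 and 3.36 at 23 days and at 1.11, 0.43 and 0.33 at 14 days.

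No myogenic regulator was called. Myog, myogenin, which drives myoblasts to differentiate, read 3600.3, 3723.2 and 3312.6 in controls and 1492.1, 2644.1 and 2688.8 in mdx. All mdx arrays were lower, with a log2 difference of -0.68 (-1.30 to -0.06, adjusted p 0.697), opposite in sign to the 1.54 seen at 23 days, and the difference between the ages was called (-2.22, adjusted p 0.0122). Myod1, the determination factor, read 3455.8, 2981.5 and 2831.5 against 3077.7, 3522.2 and 3355.7. These overlapped, at 0.11 (-0.23 to 0.44). Id1, an inhibitor of such factors, was higher on every mdx array at 0.81 (0.40 to 1.23, adjusted p 0.115) and was called after quantile normalization and with array weights. Mstn, myostatin, a brake on muscle growth, was lower on every mdx array at -0.44 (-0.84 to -0.04, adjusted p 0.671). Of 22 tested genes of this list 0 were called, and the median was 0.06.

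Denervation and synapse genes, membrane genes and the calcium machinery had 0 calls as well. Chrna1, the acetylcholine receptor alpha subunit, read 1245.9, 1357.0 and 1250.4 in controls against 1244.5, 1461.4 and 1265.8 in mdx. The groups were intermingled, with a narrow interval of -0.29 to 0.37, and the 23-day difference was larger by a called amount (-1.09, adjusted p 0.0241). Dag1, dystroglycan, differed by 0.02 (-0.22 to 0.25) and Sgca, alpha sarcoglycan, by 0.16 (-0.16 to 0.47), both members of the dystrophin complex. Utrn, utrophin, the relative of dystrophin, gave 0.07 (-0.49 to 0.64) and -0.36 (-1.16 to 0.43) on its probe sets. Cav3, caveolin 3, lay above controls on all mdx arrays at 0.34 (0.09 to 0.60, adjusted p 0.475). Ryr1, the calcium release channel of the sarcoplasmic reticulum, did so at 0.57 (0.20 to 0.94, adjusted p 0.372).

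Mature contractile and energy genes had 0 calls. Of 17 tested fast fibre genes 5 had positive differences, 10 had intervals within 2-fold and the median was -0.19. Myh2, the fast IIa myosin, read 403.0, 427.3 and 182.0 in controls and 121.3, 265.4 and 69.9 in mdx, overlapping and dim, at -1.07 (-2.54 to 0.40, adjusted p 0.907). Myh4 and Myh7, the fast IIb and slow myosins, differed by 0.03 (-0.44 to 0.50) and -0.09 (-0.42 to 0.23), and Capn3, the muscle calpain, by -0.14 (-0.48 to 0.21). Of 52 tested oxidative phosphorylation genes 0 were called, 45 had intervals within 2-fold, and 6 lay wholly below and 0 above controls (median -0.09). Over all tested probe sets 68.7% had intervals within 2-fold, 6.05% lay wholly below and 6.87% above. All 25 tested fatty acid oxidation genes had intervals within 2-fold (median 0.01), as did 24 of 26 glycolysis genes (-0.02). Of 60 tested matrix genes 0 were called, 45 (75%) were bounded within 2-fold, and Col1a1 and Col3a1 differed by -0.13 and -0.16. Postn, periostin, at 0.00 (-0.33 to 0.33), was called higher at 23 days (0.99), and Timp1, an inhibitor of matrix proteases, was above controls on all mdx arrays at 0.58 (0.09 to 1.07, adjusted p 0.613).

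Markers of other tissues gave no call. Of 114 tested marker genes of liver, blood, mesothelium, fat, vessel, nerve, fibroblast and skin and of the sex chromosomes, 0 were called, 8 (7.02%) lay wholly above and 4 (3.51%) below controls. Over all tested probe sets those shares were 6.87% and 6.05%. The liver list had a median of -0.52, and alpha globin Hba-a1 read 80293.6, 51389.3 and 67723.0 in controls and 6984.2, 18873.7 and 75876.2 in mdx. With albumin as a covariate, 14 of the 15 probe sets called higher were still called. The part of blood and liver RNA in the other results was not tested.

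The 14-day pattern was set against the ages on either side. Comparisons of the mdx effect at 14 days with that at 7 days called 21 probe sets (0.226%), 20 of them (0.215%) higher at 14 days. With arrays of those ages only the 21 became 3, and with the Gapdh ratio as a covariate 9. Of the 20, 9 were called lower in mdx at 7 days. Among these 9 were Mmp9, Cacng1 and a probe set of Pvalb, a calcium buffer of fast fibres. That probe set differed by -2.85 at 7 days and -0.22 at 14 days. Mt2 (1.89), H2-Aa (3.27), Tiparp (2.19), Lgals3 (2.26), Ctss (1.34), Nup107 (2.19) and H2-D1 (1.67) were among the others, and Ccl2, at 2.57, was not (adjusted p 0.0811). Of the 15 genes called higher at 14 days 0 were called higher at 7 days, when 0.0431% of tested probe sets were. At 23 days 6 of these genes were called higher, and so were 2.66% of tested probe sets. Against 23 days, 32 probe sets were called (0.344%), 26 (0.28%) with a smaller or more negative mdx effect at 14 days.

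**Figure D4:**
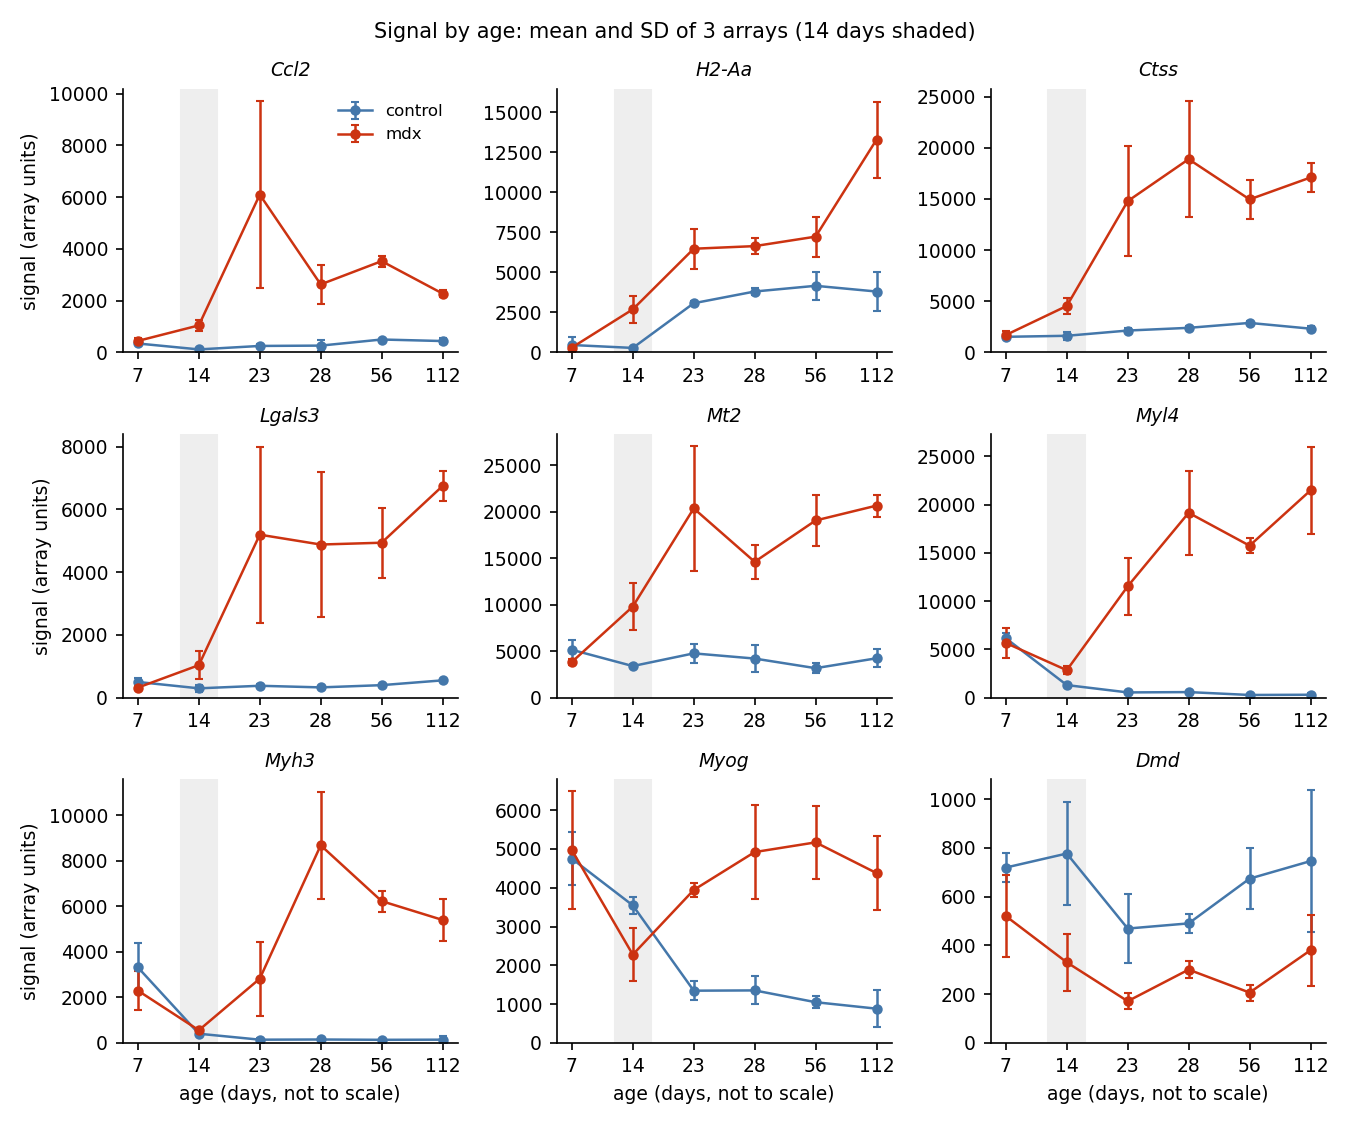
Mean signal and SD of 3 arrays by age for 9 genes in control (blue) and mdx (red) diaphragm, in array units, with 14 days shaded and ages not to scale. At 14 days Ccl2, H2-Aa, Ctss, Lgals3 and Mt2 have parted, Myh3 means are 399.9 and 552.9, and Myog is lower in mdx (2275 against 3545).

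Genes that were called at 23 days were followed back to 14 days. These comparisons share no samples, though 1 fit estimates the variance of both. Of 247 probe sets called higher at 23 days, 180 (72.9%) had a positive difference at 14 days, against 49.4% of all tested. For 60 (24.3%) all mdx arrays were above all controls at 14 days, and 6 were called higher, against 6.87% and 0.161% of all tested. Their median difference was 0.15 at 14 days and 1.15 at 23 days. The 59 of them on immune lists had a median of 0.23 with 4 called, and the 16 on muscle lists also had 0.23 with 0 called. All mdx arrays were above all controls for 19 (32.2%) of these immune genes and below for 1. For these muscle genes the numbers were 5 (31.2%) and 2. The 71 probe sets called lower at 23 days had a median of -0.03 at 14 days and -0.78 at 23 days.

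**Figure D5:**
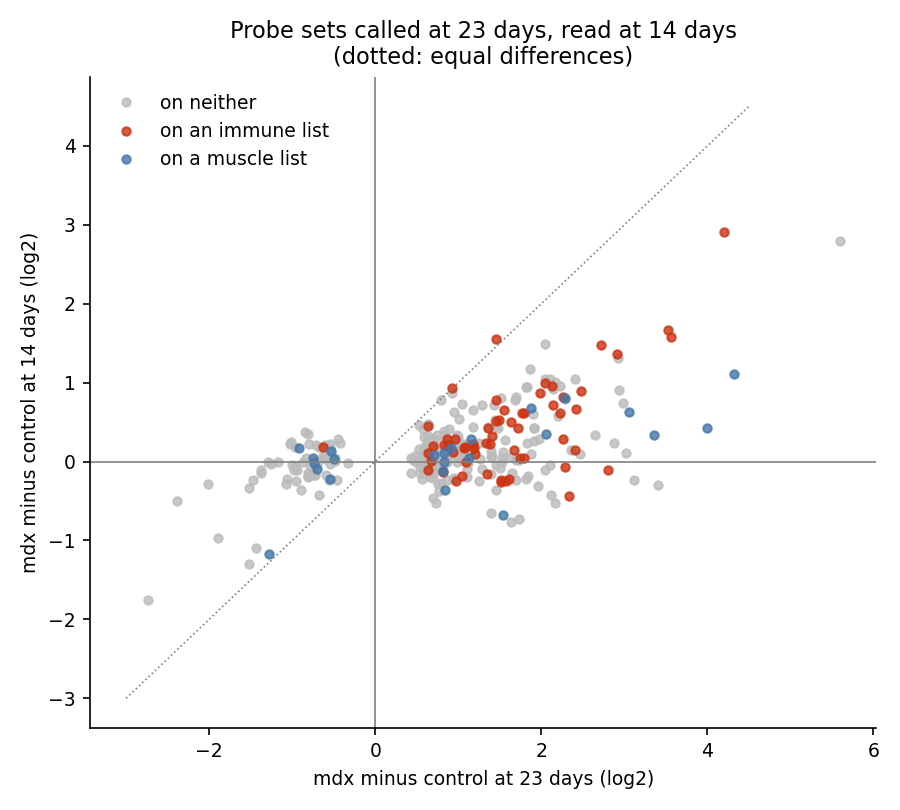
Each probe set called at 23 days, with its mdx minus control difference at 23 days (x axis, log2) and at 14 days (y axis, log2), coloured by list, with a dotted line where both are equal. Most points lie between the line and 0, with medians of 1.15 and 0.15 for those called higher.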

How the data were processed

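The authors deposited linear intensity values per probe set and array. The software behind them: not given in the sources used here. Every column had a mean of 1499.2 to 1499.7 over its values within percentiles 2 and 98, which shows a common scaling, so no further normalization was applied. Members, lists and alternatives were chosen with earlier results of these data known.

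Of 12488 probe sets, 66 controls were left out, and 10833 of the others had 1 gene symbol in the platform annotation, which can be old. Probe sets with at least 3 arrays above percentile 40 (a signal of 374.5) were tested, 9291 in all, as log2(value + 32), which understates changes of dim genes. limma 3.58.1 in R 4.3.3 fitted 12 group means over 36 arrays (trended, robust eBayes, 24 residual degrees of freedom), with Benjamini-Hochberg adjustment over all tested probe sets and a threshold of 0.05. Depth has no meaning for arrays: precision is limited by 3 arrays a group. Lists (46) read each gene by its brightest probe set. Named are all called genes with 1 symbol, a panel of 80 genes, and up to 4 members with the lowest p in each list; further genes named were chosen after their values were seen. On simulated data (9291 probe sets), 24%, 50%, 88% and 98% of changes of 0.5, 1, 2 and 3 log2 units were found, and 8 of 138 calls (5.8%) were unchanged probe sets. The simulation changed 50 probe sets at each size and drew the spread of each value independently, while the real comparison gave 18 calls. These shares may therefore not hold for the real arrays.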

Additional observations from a re-analysis of the deposited data

Results flagged for a closer look

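The effect of mdx was tested for a difference between ages (limma, adjusted p under 0.05). Genes that passed are given here if called at 14 days, on the panel, or leading a list. Leading means up to 4 members of a list with the lowest p at 14 days. For 14 minus 7 days the log2 differences were 3.27 for H2-Aa, 2.26 for Lgals3, 2.19 for Tiparp, 2.19 for Nup107, 1.89 for Mt2, 1.67 for H2-D1, 1.34 for Ctss and 1.16 for Gsn, an actin-severing protein. The values were 3.89 for Mmp9, a gelatinase of neutrophils, and 2.21 for Cacng1, a calcium channel subunit. For these genes mdx minus control at 7 days was -3.59 and -1.61, and control signals were high at that age. Mmp9 means at 7 days were 1781 (SD 1210) in controls and 83.07 in mdx, against 72.3 and 97.4 at 14 days. Cacng1 means were 10920 in controls and 3620 in mdx at 7 days, against 1631 and 2510 at 14 days. The signal of the Gapdh control probe set named for the 3' end, divided on the linear scale by that of the one named for the 5' end, also differed between the 7-day groups, at 0.0357 to 0.147 in controls and 0.32 to 0.83 in mdx, and its part in these results was not tested beyond the covariate fit.

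For 14 minus 23 days the differences were -3.56 for Myh3, -3.21 for Myl4, -3.03 for Myh8, -2.42 for Ankrd1, -2.22 for Myog and -1.09 for Chrna1. Macrophage and matrix genes with a smaller effect at 14 days were Tyrobp (-1.61), Mrc1 (-1.22), S100a4 (-1.43), Timp1 (-1.62) and Postn (-0.99), and Rrad gave -1.22. Id1 was opposite, at 1.43, with mdx minus control of 0.81 at 14 days and -0.62 at 23 days. Other genes that passed, outside this choice, included C3ar1 (-1.98), Gusb (-1.24) and Id2 (-1.2). In the direction of Id1 were Ramp1 (1.26), Plin4 (1.16), Ucp3 (1.09), Tcea3 (1.05) and Klhl21 (0.72). Groups of 3 arrays are too small to search for single arrays that stand apart.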

How the results depend on the processing

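With the 17 alternatives, the 15 probe sets called higher at 14 days became 29 with array weights, 8 with the replicate number as a block and 5 when only arrays of the ages compared were fitted. The 3 called lower became 10 with array weights and 1 with arrays of those ages only. The 21 calls of 14 against 7 days became 40 with array weights, 10 with the replicate block, 3 with arrays of those ages only, 7 without arrays with albumin above 10000 and 9 with the Gapdh ratio as a covariate. The 32 calls of 14 against 23 days became 13 after quantile normalization, 209 with array weights, 19 with the replicate block, 13 with arrays of those ages only and 17 without high-albumin arrays. The 7 immune genes became 4 with the block, 3 with those ages only and 2 without high-albumin arrays, and the 3 class II genes 1 in the last. The 2 macrophage markers became 4 with array weights and 1 with the block, with those ages only and without high-albumin arrays. The 0 muscle genes became 1 at pseudocount 100, 2 after quantile normalization, 3 with array weights and 1 without high-albumin arrays.

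Leaving out each 14-day array in turn gave 7 to 14 probe sets called higher, 0 to 5 lower, 9 to 26 against 7 days and 14 to 33 against 23 days. It gave 3 to 6 immune and 1 to 2 macrophage genes. Without control replicate 2 the 4 probe set counts were 7, 0, 9 and 14; at 0 called lower, 558 probe sets had an unadjusted p under 0.05. Same-numbered arrays correlated at 0.0229, -0.019 and -0.0172 in their deviations from group means, and differently numbered ones at -0.0552 to 0.069. With 3 arrays a group this gives no sign of pairing by number but cannot exclude it. The cause of these changes was not tested, but the fits with fewer arrays have fewer samples.

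Of 18 called genes 2 kept the call throughout, and 11 of 211 uncalled named genes gained one somewhere. Pvalb is read in this paragraph by its brightest probe set, which is not the probe set given for it above. Among named genes uncalled in both fits, 72 log2 differences changed sign. Without high-albumin arrays they were Utrn -0.26, Adgre1 0.98, Icam1 -0.27, S100a9 0.02, Arg1 0.12, Myod1 -0.07, Ncam1 0.09, Pvalb -0.21, Myh7 0.04, Sgca -0.20, Dag1 -0.07, Capn3 0.19, Tgfb1 -0.04, Alb 0.03, Tap2 -0.18, H2-Q1 0.17, Stab1 -0.03, Fcgr2b -0.05, Itgal 0.66, Elane 0.15, Blnk 0.14, Btk -0.76, Cpa3 0.02, S100a10 -0.08, Capns1 -0.07, Etfb -0.01, Ttr 0.38, Msln -0.39, Nos3 -0.02, Pmp22 -0.10 and Mag 0.07. After quantile normalization they were Mb 0.03, S100a9 0.04, Tnnt3 0.03, Casq1 0.07 and Col1a1 0.05, and with albumin as a covariate Adgre1 0.03 and Arg1 0.24. With each array left out they spanned Adgre1 -0.71 to 0.34, Arg1 -0.20 to 0.22, Blnk -0.67 to 0.03, Btk -0.01 to 0.83, Capn3 -0.30 to 0.05, Casq1 -0.20 to 0.01, Chrna1 -0.03 to 0.08, Cox8b -0.17 to 0.01, Dag1 -0.02 to 0.07, Eif2s3y -0.41 to 0.10, Fcgr1 -0.08 to 0.48, Mb -0.29 to 0.17, Msln -0.06 to 1.06, Myh4 -0.03 to 0.08, Myl2 -0.31 to 0.06, Ncam1 -0.24 to 0.04, Ndufs4 -0.16 to 0.05, Pvalb -0.11 to 0.14, S100a9 -0.34 to 0.41, Utrn -0.16 to 0.23 and Vcam1 -0.37 to 0.06.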
